A study of Xenopus laevis with 6 samples.

Results

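The Fanconi anaemia genes comprised 10 gene copies of 45099 annotated genes, taken as every annotated copy of fanca, fancb, fancc, fancd2, fance, fancf, fancg, fanci, fancl and fancm. Transcripts were measured by RNA sequencing of the optic tectum, the midbrain region that receives input from the eye, from Xenopus laevis tadpoles at stage 46. Of the 6 libraries, 3 came from material enriched for neural progenitors of dark-exposed animals (NPC) and 3 from material enriched for immature neurons in animals given visual stimulation (IN). Cell population and visual condition changed together in all 6 libraries, so their contributions cannot be told apart, and no further genotype, strain or age is given for either group. The labels give neither the way in which the populations were enriched nor the number of animals behind a library, so the spread between libraries may be technical. The family was chosen by gene name, but selected on earlier results of these data, among them the difference in reads of fancd2.L between NPC and IN, so the values of NPC and IN below are a description of these libraries and are not offered as independent evidence.

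The Fanconi anaemia pathway repairs DNA strands that are crosslinked to each other, a lesion that stops the replication fork. In vertebrates FANCM binds the stalled fork and anchors a nuclear core complex of FANCA, FANCB, FANCC, FANCE, FANCF, FANCG and FANCL, in which FANCL is the ubiquitin ligase. The complex attaches ubiquitin to FANCD2 and FANCI, which form a clamp on DNA called ID2, and USP1 with its partner WDR48 removes the ubiquitin again. In mice, neural progenitors are among the cells lost when the pathway fails. BRCA1, which the study names in its title, acts in the same process.

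X. laevis is allotetraploid, with gene copies marked .L and .S for its long and short subgenomes. Each of the 10 symbols had 1 annotated copy, 9 of them L and 1 S (fancg.S), so no pair of copies could be compared. Over the annotation, 57.0% of 18318 symbols with a copy suffix had both copies, and 75.7% of the symbols with 1 kind of copy had L. The genes lay on 8 chromosomes or scaffolds of build 9.1, on which fancb.L and fance.L shared chromosome 2L, and fancf.L and fancm.L shared 8L. The genes fancl.L (5L:33136341-33168158, plus strand) and fancm.L (8L:68930859-69011805, plus strand) had coding lengths of 1083 and 6498 bases, the former with no annotated UTR. The smallest gene, fancf.L (8L:54384319-54385438, minus strand), had its coding sequence in 1 segment, and fanca.L (Scaffold97:46342-89680, minus strand) and fancd2.L (4L:117939494-117983665, plus strand) had 43 segments each.

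Reads were deposited in 3 tables, of STAR alignments counted over mRNA and of STAR and TopHat2 alignments counted over coding sequence. The mRNA table held 8422751 to 9914191 reads per library, and the totals over coding sequence with STAR were 45.1% to 61.0% as large. Its counts included reads between coding segments. Among 7749 genes with no UTR lines, no overlapping gene and several coding segments, 16.9% to 41.6% of mRNA reads per library fell outside coding sequence, while in 3962 such genes with 1 segment the coding and mRNA counts differed by at most 0.298%. Libraries numbered 1 had the most of these reads in either group (41.6% in NPC and 39.0% in IN) and libraries numbered 3 the fewest (16.9% and 18.3%). Reads where 2 genes overlap were not counted in the mRNA table, whatever the strand: of 364 genes that lie inside a gene of the opposite strand and have at least 10 coding reads, 360 stood at 0, as did 202 of 205 such genes inside a gene of the same strand. Levels are given as raw reads or as CPM after TMM scaling, which allows for differences in depth.

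Reads of the family were few in these libraries, and the leading member differed between them. The member with the most reads was fanci.L in NPC libraries 1 and 2 and fancd2.L in NPC library 3, and it was fancm.L in IN libraries 1 and 2 and fancl.L in IN library 3. In all, 5 of the 10 genes (fancb.L, fancd2.L, fancg.S, fanci.L and fancm.L) passed the filter on low reads in the mRNA table, and 3 (fancd2.L, fanci.L and fancm.L) did in each coding table. The summed level of the 10 genes was 42.9, 81.9 and 77.0 CPM in NPC libraries 1 to 3 and 79.8, 64.4 and 28.1 CPM in the IN libraries, and the groups overlapped. The ID2 genes fancd2.L and fanci.L summed to 45.4 ± 23.0 CPM in NPC, against 2.88 ± 2.20 CPM in the IN group (SD, n = 3), without overlap. The anchor gene fancm.L stood at 7.25 ± 2.75 CPM in NPC, against 34.3 ± 30.4 CPM in IN, and the 7 core complex genes summed to 14.6 ± 7.21 and 20.3 ± 14.6 CPM, both with overlap. In bulk samples, fewer cells of a type and less RNA per cell cannot be told apart.

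**Figure D1:**
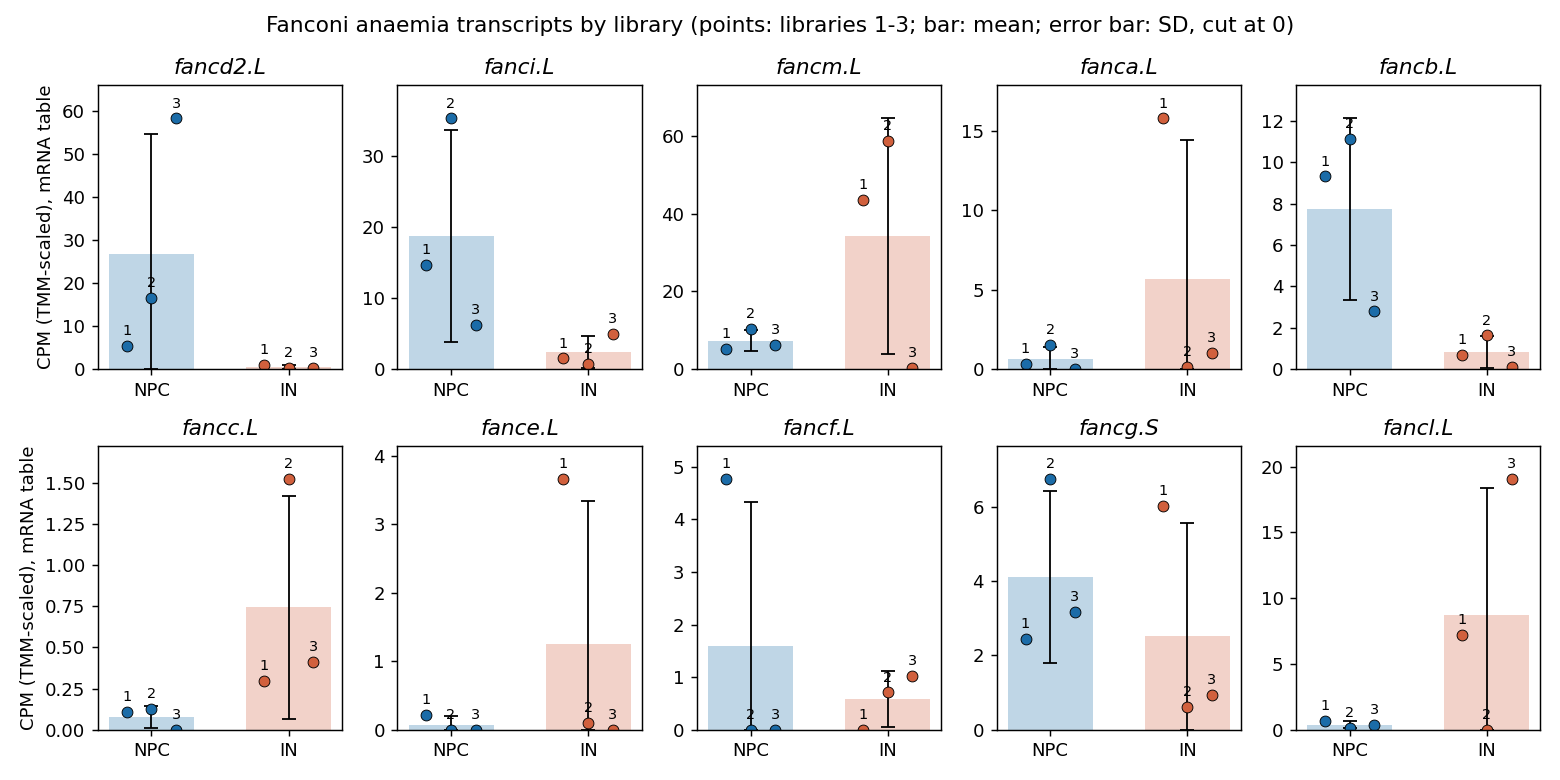
Level of each of the 10 Fanconi anaemia genes in CPM after TMM scaling (vertical axes from 0, scaled per gene) in the NPC and IN libraries; numbered points are libraries, bars are means and error bars are SD, n = 3. For fancd2.L and fanci.L every NPC point lies above every IN point, while fancm.L has IN libraries 1 and 2 at 43.7 and 58.8 CPM and IN library 3 at 0.309 CPM.

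Among the 5 tested members the largest fold change was that of fancd2.L (gene ID Xelaev18023768m.g), whose protein is a subunit of the ID2 clamp, which recruits repair nucleases. It had 50, 133 and 461 reads in the NPC libraries and 10, 2 and 3 reads in the IN libraries. Every NPC library was above every IN library, and NPC library 3 held 69.9% of all its reads. These counts correspond to 26.8 ± 27.9 CPM in NPC, against 0.50 ± 0.43 CPM in the IN group (SD, n = 3), and to a log2 fold change, IN minus NPC, of -5.70 (SE 1.88). Without NPC library 3, the library with most of the reads, the log2 fold change was -4.42 (SE 2.49).

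The difference was also present when only reads over coding sequence were counted. The coding tables recount the same libraries, so they are not independent evidence. Over coding sequence with STAR, fancd2.L had 50, 121 and 428 reads in the NPC libraries, compared with 1, 1 and 1 in the IN libraries, and with TopHat2 it had 38, 88 and 357 against 0, 1 and 1. The 599 and 3 summed STAR coding reads put the NPC level 232 times above that of IN (exact 95% bounds 79.1 and 1130), and the 483 and 2 TopHat2 reads put it 280 times above (exact 95% bounds 77.1 and 2320). In the mRNA table the 644 and 15 reads gave a smaller ratio of 50.3 (exact 95% bounds 30.3 and 90.4). Without NPC library 3, which held 428 of the 599 STAR coding reads, the ratios were 107 with STAR coding reads, 118 with TopHat2 and 20.8 in the mRNA table (chosen after seeing the data). These bounds cover counting error only and leave out the spread between libraries. The log2 fold changes of the coding tables were -7.56 (SE 2.24) and -7.80 (SE 2.38). Of the 15 IN reads in the mRNA table, 12 fell outside coding sequence. By library, reads outside it numbered 0, 12 and 33 in NPC and 9, 1 and 2 in IN, so the groups overlapped there.

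The partner subunit, fanci.L (3L:99644864-99696852, plus strand), also stood higher in every NPC library, by a narrow margin. It had 138, 282 and 49 reads in NPC libraries 1 to 3, against 15, 7 and 48 in the IN libraries. NPC library 3 and IN library 3 were only 1 read apart, at 6.20 and 4.94 CPM after scaling, and the order held with median-of-ratios, upper-quartile and library-total scaling. The means were 18.7 ± 15.0 CPM in NPC, against 2.38 ± 2.25 CPM in IN, with a log2 fold change of -2.97 (SE 1.76). Over coding sequence with STAR it had 71, 230 and 49 reads in the NPC libraries, compared with 13, 0 and 48 in the IN libraries, again without overlap after scaling, with a log2 fold change of -2.86 (SE 2.09). The gene ends inside polg.L, which encodes the mitochondrial DNA polymerase on the opposite strand. The 2 genes share 1188 bases, and the mRNA count of fanci.L may lack reads from there.

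The ID2 genes did not peak in the same library. Reads of fancd2.L were highest in NPC library 3, where fanci.L had its lowest NPC count, and fanci.L was highest in NPC library 2. The fanci.L gene supplied 73.4% and 67.9% of ID2 reads in NPC libraries 1 and 2, whereas fancd2.L supplied 90.4% in NPC library 3.

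The gene fancm.L, which encodes the DNA translocase that anchors the core complex, was uneven among the IN libraries. It had 49, 83 and 49 reads in NPC libraries 1 to 3, against 442, 580 and 3 in the IN libraries. IN libraries 1 and 2 were above every NPC library and IN library 3 was below them all, so the groups overlapped. The log2 fold change was 2.24 (SE 1.49) over all libraries, and ran from 1.61 without IN library 2 to 2.82 without IN library 3 when 1 library was left out. With limma-voom it was 0.53. The same unevenness was seen in coding sequence, with 3, 46 and 49 STAR reads in the NPC libraries, compared with 396, 480 and 1 in the IN libraries, and a log2 fold change of 3.13 (SE 1.77). In NPC library 1, at least 46 of its 49 mRNA reads lay outside coding sequence. The uncharacterised gene loc100189574.L lies within fancm.L on the opposite strand over 27431 bases. It had 13 to 133 coding reads per library and 0 in every library of the mRNA table, so the mRNA count of fancm.L may lack reads from this stretch too.

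Of the core complex genes, fancb.L (2L:27980895-28004210, minus strand), which encodes a scaffold subunit that binds FANCL, separated the groups in the mRNA table and not in the coding tables. It had 88, 89 and 22 reads in NPC libraries 1 to 3, against 7, 16 and 1 in the IN libraries, without overlap. These gave 7.74 ± 4.39 CPM in NPC, against 0.806 ± 0.767 CPM in IN, and a log2 fold change of -3.24 (SE 2.10). Coding sequence held 27, 0 and 0 of the NPC reads and 2, 14 and 0 of the IN reads, so the groups overlapped there and 172 of 199 NPC reads lay outside it. The annotated 3′ UTR of fancb.L is 2596 bases long, close to its coding length of 2577 bases, and the tables do not say which reads fell in the UTR and which in introns.

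The core subunit gene fancg.S (1S:179937633-179965589, minus strand), the only S copy, did not separate the groups. It had 23, 54 and 25 reads in the NPC libraries, compared with 61, 6 and 9 in the IN libraries, with the highest count in IN library 1. Its means were 4.12 ± 2.31 and 2.52 ± 3.04 CPM, with a log2 fold change of -0.70 (SE 1.96, 95% interval -4.78 to 3.37). Coding sequence held 0, 0 and 23 of the NPC reads and 17, 2 and 0 of the IN reads. A 3′ UTR of 2486 bases is annotated.

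**Figure D2:**
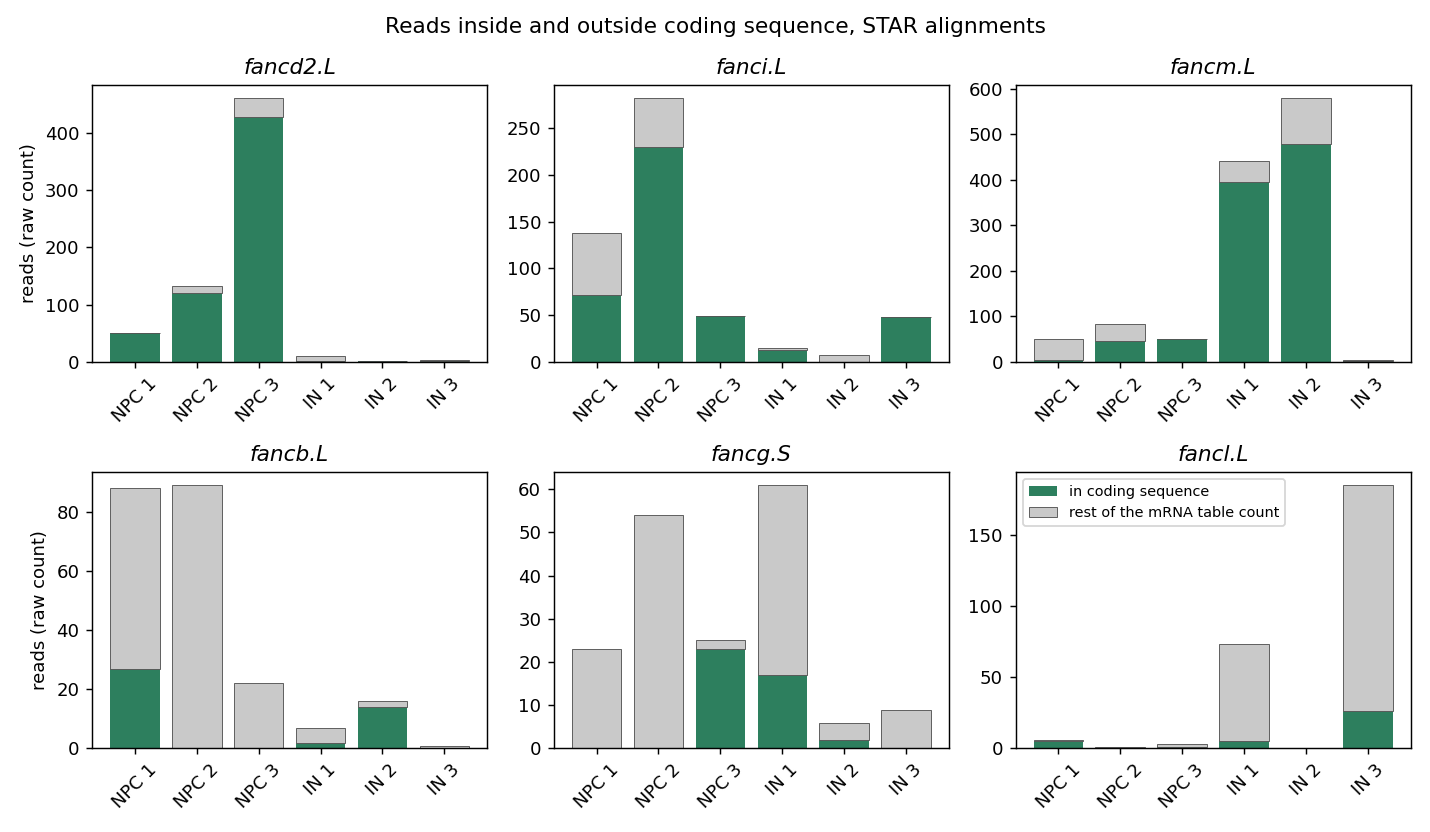
Raw reads of 6 Fanconi anaemia genes in each library (vertical axes from 0, scaled per gene), split into those counted over coding sequence with STAR (green) and the rest of the mRNA table count (grey). The grey part is the mRNA count less the coding count, which may be too low for fanci.L and fancm.L, where another gene overlaps. Summed over the libraries, coding reads make up most of the reads shown for fancd2.L, fanci.L and fancm.L. They are the smaller part of those of fancb.L, fancg.S and fancl.L.

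Reads of fancl.L, the ubiquitin ligase gene, came mainly from 2 IN libraries. It had 6, 1 and 3 reads in NPC libraries 1 to 3, against 73, 0 and 185 in the IN libraries, and it did not pass the filter, as only 2 libraries had 10 reads or more. IN library 2 at 0 was below every NPC library, so the groups overlapped. Coding sequence held only 37 of its 268 reads. Since its model has no UTR, the other 231 fell between coding segments, which by this model is intron.

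The remaining core genes each had most of their reads in 1 library, and none passed the filter. The core subunit gene fanca.L had 3, 12 and 0 reads in the NPC libraries, compared with 160, 1 and 10 in the IN libraries, so IN library 1 held 86.0% of them. Likewise fance.L (2L:66652279-66673252, plus strand), whose protein links the core complex to FANCD2, had 2, 0 and 0 reads in NPC libraries 1 to 3, against 37, 1 and 0 in the IN libraries. In the other direction, fancf.L, an adaptor subunit gene, had 45, 0 and 0 reads in the NPC libraries, compared with 0, 7 and 10 in the IN libraries. Of its 62 reads 61 were coding, as its model leaves almost no other sequence. The gene fancc.L (1L:133936380-134005952, minus strand), whose protein pairs with FANCE, had 1, 1 and 0 reads in NPC libraries 1 to 3, against 3, 15 and 4 in the IN libraries. Every IN library was above every NPC library under each scaling tried, on 24 reads in all. All 24 lay outside coding sequence, where it had 0 reads in every library and table; a count of 0 allows up to 3 reads per library, for counting error only.

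Levels of different genes were compared as coding CPM per kilobase of coding length. In NPC the order was led by fancd2.L (9.56 ± 8.71), fanci.L (6.62 ± 5.58), fancf.L (3.66 ± 6.33) and fancm.L (1.07 ± 0.825). In IN it was led by fancm.L (9.42 ± 8.14), fancl.L (1.67 ± 2.05), fanca.L (1.31 ± 2.0) and fanci.L (0.905 ± 0.995), and fancd2.L was ninth of the 10 genes at 0.0451 ± 0.00757 (SD, n = 3 for each value). Every gene overlapped the next in the order of its group over the 3 libraries, except fancd2.L and fancc.L in IN, which were separated by 1 read per library. The order is therefore a ranking of means that the spread between libraries does not resolve from one gene to the next.

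No member was called by edgeR (quasi-likelihood test, Benjamini-Hochberg adjusted across the whole table; 0 of 5 tested), against 0 of 19158 genes (0.0%) in the mRNA table, and likewise 0 of 3 members in each coding table, against 0 of 15422 genes (0.0%) with STAR and 0 of 14870 (0.0%) with TopHat2. At an unadjusted p under 0.05, edgeR had 658 genes in the mRNA table (3.43%), 1.93% higher in NPC and 1.51% higher in IN. Of the 5 tested members only fancd2.L, chosen with its difference known, was among them. Its unadjusted p by edgeR was 0.00637, and 0.0871 without NPC library 3. Among other tools, limma-voom called 0 genes (0.0%) and DESeq2 called 88 (0.459%), fancd2.L among them. On the STAR coding counts DESeq2 called 95 genes (0.616%), again with fancd2.L as the only member. Counts were simulated in a single run with the same biological coefficient of variation, the median of 111%, for every gene. In these counts DESeq2 recovered 7% of genes changed 4-fold and 40% of those changed 16-fold, with 87 false calls. From the same counts edgeR recovered 0% of either with 0 false calls, so a lack of calls by edgeR is not evidence of no change. Variation differs between the genes of these libraries, so the simulation cannot say whether the call of fancd2.L is true or false. Of the 5 members tested, 3 had groups that did not overlap, all higher in NPC (fancd2.L, fanci.L and fancb.L), beside 4.06% of all tested genes in that direction, and 0 were higher in IN, beside 4.70%. The gene fancc.L, whose groups did not overlap with IN higher, did not pass the filter and is not in these counts. With IN reads of 10, 2 and 3 and of 7, 16 and 1, fancd2.L and fancb.L passed the filter through their NPC libraries. With STAR coding counts, fancd2.L and fanci.L did not overlap (2 of 3 members, higher in NPC, beside 4.04%) and 0 members were higher in IN (beside 5.59%). With TopHat2 coding counts the same 2 genes did not overlap (beside 4.04%), and again 0 were higher in IN (beside 5.57%). Nothing is read from these shares or their direction, since the family was chosen with the contrast known and the filter bears on which members were counted.

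**Figure D3:**
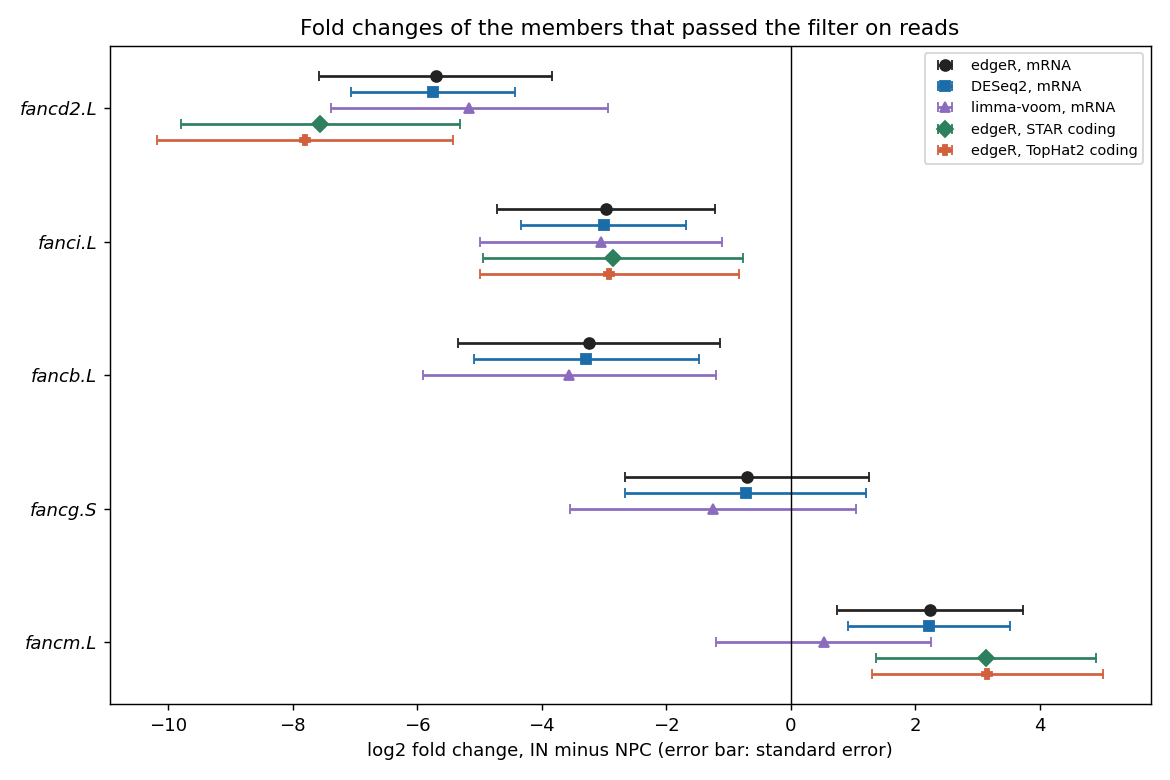
Log2 fold change, IN minus NPC, of the 5 Fanconi anaemia genes that passed the filter (error bars are standard errors), by tool and table; fancb.L and fancg.S have no coding value because they did not pass the filter there. All values for fancd2.L, fanci.L and fancb.L lie below 0, from -7.80 to -2.86, and those of fancm.L lie between 0.53 and 3.16.

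Measures related to the spread between libraries differed among the members. For the 5 tested members, the biological coefficient of variation that the fit set by expression level ran from 111% (fancm.L) to 153% (fancg.S). The median over all tested genes was 111%. This value follows the level of a gene and does not measure that gene's own spread. The share of a gene's reads held by its top library ran from 34.3% to 69.9% among these 5 members. Over the 10874 tested genes with 100 to 1500 reads, the median share was 45.03% and the upper quartile 56.8%. Only fancd2.L, at 69.9%, was above that upper quartile. The share is taken over both groups, so it also rises with a difference between them. As fancd2.L was chosen with its difference known, its share does not measure the spread between replicates alone.

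Genes that act with the family were taken as 6 lists, of which 40 copies were tested. None of them passed edgeR's test (0.0% of all tested genes did), which, by the simulation above, is not evidence of no change. Of the 40 copies, 0 had an unadjusted p under 0.05, beside 3.43% of all tested genes. Their fold changes were above 0 for 22 copies and below 0 for 18, with a median of 0.37 on the log2 scale, against -0.03 over all tested genes. Of these copies 2 had groups that did not overlap, both higher in NPC (5.0%, beside 4.06% of all tested genes), and 0 were higher in IN, beside 4.70%. Nothing is read from these 2 copies, described next, as their share was near that of all tested genes.

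The first was wdr48.L, which encodes the partner of USP1 in removing ubiquitin from ID2. It had 81, 28 and 204 reads in the NPC libraries, compared with 9, 9 and 6 in the IN libraries, or 12.6 ± 11.7 and 0.807 ± 0.164 CPM, with a log2 fold change of -3.95 (SE 2.02). With 9, 9 and 6 IN reads, wdr48.L passed the filter through its NPC libraries. Its coding reads were 79, 12 and 202 against 5, 9 and 5. They come from the same libraries, so their lack of overlap is not independent evidence. The deubiquitinase gene itself, usp1.L, had 8, 669 and 140 reads in NPC libraries 1 to 3, against 2, 169 and 171 in the IN libraries, with overlap. The S copies wdr48.S and usp1.S also had groups that overlapped, with log2 fold changes of -0.855 (SE 1.91) and 1.74 (SE 2.09). Of the 4 tested copies of these 2 genes, 3 had a fold change below 0 and 1 above. The second copy without overlap was brca1.L, a recombination gene and the gene of the study's title. It had 125, 223 and 208 reads in the NPC libraries, compared with 36, 57 and 33 in the IN libraries, with a log2 fold change of -2.40 (SE 1.53).

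The other lists were mixed. Of 8 symbols of core complex partners only 3 were annotated, with 3 copies, of which 2 were tested. One of these, ube2t.S, the ubiquitin-conjugating enzyme that works with FANCL, was at 10.9 ± 11.1 CPM in NPC and 8.29 ± 3.49 in IN. The other, faap24.L, the partner of FANCM, was at 8.76 ± 7.50 and 10.7 ± 15.3. Nucleases that cut at crosslinks had 8 tested copies, 6 with a fold change below 0 and 2 above. Their summed level was 146, 216 and 238 CPM in NPC and 124, 78.6 and 136 CPM in IN, without overlap. Without fan1.L, which made up 131 CPM of the sum in NPC library 2, the sums were 137, 85.1 and 238 CPM in NPC and 123, 65.1 and 136 CPM in IN, and the groups overlapped (chosen after seeing the data). By lowest p, the nuclease gene fan1.L had 90, 1044 and 0 reads in NPC libraries 1 to 3, against 1, 133 and 2 in the IN libraries, and dclre1a.L had 41, 2 and 1 against 14, 127 and 265. Translesion synthesis genes, which include polymerases that copy past damaged bases, had 7 of 9 tested copies above 0. By lowest p, rad18.L was below 0, at 946, 83 and 64 reads against 76, 49 and 93. Above 0 was poli.S, at 25, 0 and 4 against 0, 150 and 95. Of downstream recombination genes 8 of 11 tested copies were above 0, such as rfwd3.S, a ubiquitin ligase gene, with 67, 1 and 171 reads against 100, 746 and 113. Checkpoint genes upstream of the pathway had 3 of 6 above 0. The kinase gene atr.L was below 0, at 470, 52 and 282 reads against 88, 11 and 33. Above 0 was topbp1.L, whose protein activates ATR, at 136, 1 and 13 against 446, 126 and 316.

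**Figure D4:**
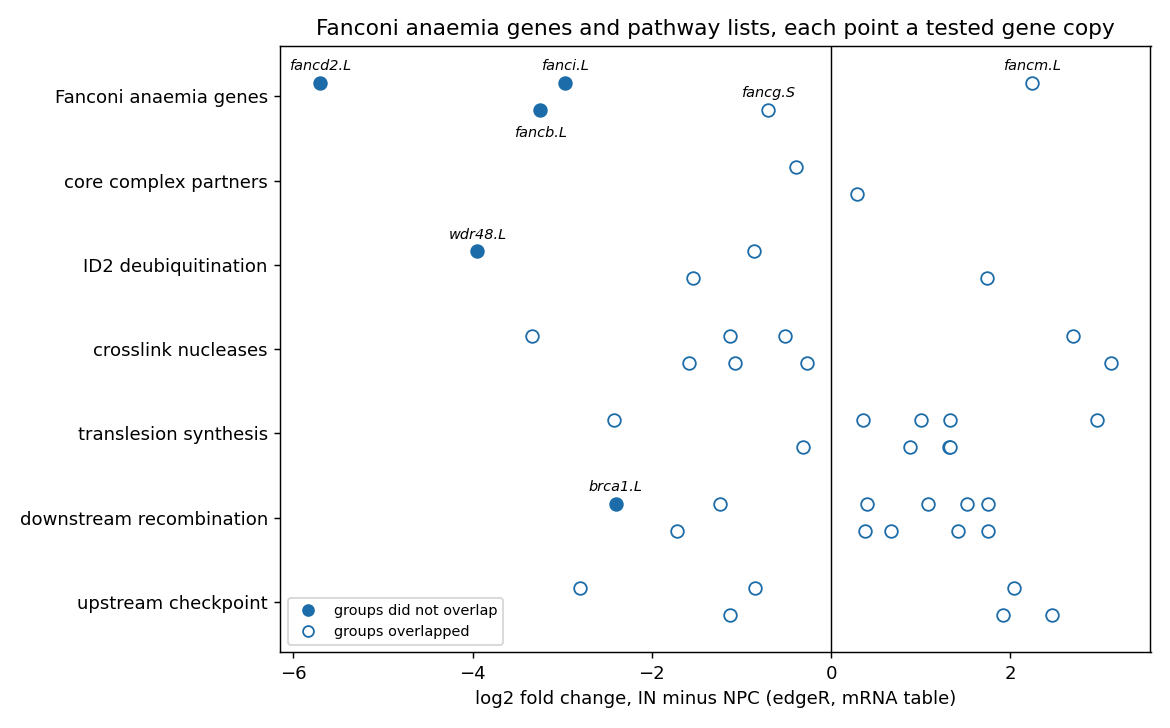
Log2 fold change, IN minus NPC (edgeR, mRNA table), of tested Fanconi anaemia genes and of tested copies in 6 lists of genes that act with them; each point is 1 gene copy, filled where the groups did not overlap. The filled points are fancd2.L, fanci.L and fancb.L of the family, which was chosen with the contrast known, and wdr48.L and brca1.L of the lists. All of these lie below 0. The list copies that are filled make up 5.0% of those tested, beside 4.06% of all tested genes in that direction. Of the list copies tested, 22 lie above 0 and 18 below. Not shown is fancc.L, which had no overlap with IN higher but did not pass the filter.

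Markers of replication and of cell types were examined beside these values. The S phase list (22 copies) summed to 456, 840 and 1436 CPM in NPC and 689, 1054 and 1559 CPM in IN, with overlap. Among the 16 copies tested, fold changes were positive for 9 and negative for 7 (10 and 6 with upper-quartile scaling). Their median was 0.20 on the log2 scale, against -0.03 over all tested genes. Of these copies, 2 had groups that did not overlap with NPC higher, beside 4.06% of all tested genes, and 1 with IN higher, beside 4.70%. The S phase copies of lowest p were cdc45.L, a helicase component gene, at 106, 86 and 563 reads against 7, 76 and 18, and mcm5.L at 910, 1724 and 1000 against 72, 307 and 999. Radial glia and progenitor genes summed to 1384 to 3099 CPM in NPC and 1876 to 3317 CPM in IN, and neuron genes to 4899 to 8930 CPM in NPC and 4104 to 6664 CPM in IN, both with overlap. Of 16 tested progenitor copies 11 had a fold change above 0, which is higher in IN, and of 16 tested neuron copies 12 had one below 0 (13 with median-of-ratios and 11 with upper-quartile scaling). The means were 2503 ± 969 CPM in NPC and 2648 ± 726 CPM in IN for progenitor genes, and 7392 ± 2179 and 5599 ± 1333 CPM for neuron genes (SD, n = 3). The sums and signs of these lists therefore did not show the labelled enrichment of progenitors in NPC and of neurons in IN. By lowest p, the progenitor gene hes1.S had 528, 1749 and 1 reads in NPC, against 53, 77 and 9 in IN. Its log2 fold change of -4.29 (SE 1.45) went the labelled way. The neuron gene elavl4.S, with 2527, 4106 and 1594 reads against 1642, 1535 and 1087, had -1.19 (SE 0.543), higher in NPC. Groups did not overlap for 0 progenitor copies and for 1 neuron copy, higher in NPC (beside 4.06% of all tested genes). Oligodendrocyte genes (11 copies, none at 0 in all libraries) summed to 144 to 150 CPM in NPC and 82.3 to 141 CPM in IN, without overlap after TMM scaling but with overlap after upper-quartile scaling (136 to 156 and 84.1 to 146 CPM). Their part in the values of the Fanconi anaemia genes was not tested. Microglia and leukocyte genes summed to 14.5 to 36.3 CPM in NPC and 28.1 to 99.8 in IN, endothelial genes to 49.4 to 128 and 21.7 to 59.7, erythroid genes to 1.77 to 145 and 0.721 to 8.62, skin genes to 58.4 to 168 and 34.0 to 299, and ependymal and choroid plexus genes to 107 to 333 and 69.5 to 429, all with overlap.

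By the root mean square difference of log2(CPM + 0.5) over the 6 libraries, the named genes most like fancd2.L in level were dbndd1.S (0.689), gsg1l.S (0.801) and socs3.L (0.826), of 19157 compared. In the mRNA table dbndd1.S had 53, 86 and 407 reads in the NPC libraries, compared with 13, 2 and 18 in the IN libraries. Its coding reads were 0, 86 and 1 against 0, 0 and 11, unlike fancd2.L, whose coding reads followed its mRNA reads in every NPC library. The coding reads of gsg1l.S, 0, 82 and 3 in NPC, and of socs3.L, 0, 0 and 31, likewise did not follow their mRNA reads of 116, 110 and 175 and of 85, 117 and 254. Such agreement was not particular to fancd2.L. In the NPC libraries brca1.L had 96, 187 and 203 coding reads beside 125, 223 and 208 mRNA reads. The neighbour fancd2os.L, which ends close to fancd2.L on the opposite strand, had 5 reads in IN library 1 and 0 in the other libraries.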

How the data were processed

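The authors deposited 3 tables of raw read counts: STAR alignments over mRNA, and STAR and TopHat2 alignments over coding sequence, per the sheet names. The submitters' processing notes also name FastQC, Trimmomatic, HTSeq and DESeq2, without roles or versions; strand setting and treatment of multiply mapped reads: not given in the sources used here. Positions are 1-based in build 9.1, per the file headers of the deposited annotation. Columns D and L were read as dark (NPC) and light (IN).

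Genes passing filterByExpr in the mRNA table were fitted in edgeR 4.0.16 under R 4.3.3 after TMM scaling (robust quasi-likelihood fit, 2-sided test); p-values were adjusted across the whole table by Benjamini-Hochberg, with 0.05 as the threshold. The standard error is the log2 fold change over the root of F. Coding tables were joined to genes through their transcripts. DESeq2 1.42.0 and limma-voom 3.58.1 were alternatives. Intervals of read ratios are exact, and cover counting error only. Simulated counts, in which 200 genes were changed and every gene had the same variation, tested the code. At a biological coefficient of variation of 22.4%, edgeR recovered 100% of genes changed 4-fold with 11 false calls, and at 111% it recovered 0% with 0 false calls.

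The members, gene lists and tests were chosen with earlier results of these data known. From each pathway list and the S phase list the 2 copies of lowest p were named, together with all members, brca1.L and the 3 genes most like fancd2.L. The usp1.L gene also comes from that rule. In addition, wdr48.S and usp1.S were named as the S copies of named genes, and fancd2os.L for its position. From the progenitor and neuron lists, hes1.S and elavl4.S were named as the copies of lowest p. A test of L against S copies had been planned and was not possible, as no member has both.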

Additional observations from a re-analysis of the deposited data

How the results depend on the processing

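Fold changes of the 5 tested members kept their direction under all scalings, filters, tools, tables and left-out libraries that gave a value: -7.80 to -4.42 for fancd2.L, -4.07 to -2.12 for fanci.L, -4.23 to -2.72 for fancb.L, -2.40 to -0.14 for fancg.S and 0.53 to 3.16 for fancm.L. edgeR called 16 genes without a filter on reads and 0 to 2 when 1 library was left out, with 0 members in each. DESeq2 called 88 genes with mRNA counts and 95 with STAR coding counts (the latter chosen after seeing the data), in each case with 1 member, fancd2.L (adjusted p 0.00722 and 0.000625 by DESeq2, up to 1 by edgeR); the cause was not tested. The difference in summed CPM of the 10 genes, IN minus NPC, was -9.83, and ran from -22.0 to 4.84 when 1 library was left out, changing sign without IN library 3.

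The labels give same-numbered libraries nothing in common but the number. Their deviations from the group means correlated at 0.115, 0.047 and 0.081, not over 0.1 in every pair, but each the highest for that library. Such deviations cancel within a group, so pairs of both signs had to occur, and the order of the pairs is weak support. The shares of coding reads of same-numbered libraries were close (45.1% and 45.9%, 55.1% and 54.0%, 61.0% and 60.9%), a hint from the data that the numbers mark something shared. With the replicate number as a block, edgeR called 0 genes (645 at an unadjusted p under 0.05) and 0 members, and with STAR coding counts and the block, chosen after seeing the data, 8 genes and 0 members. Too few libraries had enough reads of fanca.L, fancc.L, fance.L, fancf.L and fancl.L for these genes to pass the filter. They have fold changes only under looser filters or with a library left out. Depth limits fancc.L, which had 24 reads in all. L against S copies could not be run.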
